A study of Drosophila melanogaster with 5 samples.

Results

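The genes described here were 10 regulators of the somatic part of the Drosophila melanogaster testis, namely the niche signals and the transcription regulators of the hub and of the somatic cyst lineage: upd1, hh, Wnt2, dome, Stat92E, Socs36E, chinmo, zfh1, eya and tj. They were picked by symbol, with earlier results of these data known, and 9 of the 10 symbols matched a row of a table of 12847 genes. The ligand upd1 was not analysed here. RNA of testis ribosomes from the Batumi laboratory stock was sequenced in 5 libraries. In 3 of them the ribosomes had been precipitated with antibodies to βNACtes (βNACtes IP), a germline form of the β-subunit of NAC, the complex that meets nascent chains at the ribosome, and 2 came from total ribosomes of the same kind of extract as the control. Extracts were made from 1000 frozen testes of adult males, whose age the labels give as 1-2 with no unit, so each library pooled many animals. The antiserum to this subunit stains germ cells, mostly spermatocytes, and the extract held ribosomes of every cell of the dissected organ, somatic cells included.

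The hub is a small cluster of somatic cells at the tip of the testis that keeps stem cells around it. Its secreted ligand Upd binds the receptor Domeless, the JAK kinase Hopscotch then activates the transcription factor Stat92E, and Stat92E switches on its own inhibitor Socs36E as well as zfh1 and chinmo in the cyst stem cells. The hub also secretes Hedgehog, which acts on the cyst stem cells. Cyst cells envelop the dividing germ cells: the Maf factor Traffic jam (tj) marks their early stages and Eyes absent (eya) the later ones.

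The authors deposited 1 mean per gene for each of the 2 groups, so the values below carry no error between libraries, no test was made and sequencing depth is unknown. The values name no unit and are read as FPKM (fragments per kilobase of transcript, scaled by library size). That unit divides by length, yet the ratio between the columns still rose with exonic length, as described below. The Spearman correlation was 0.33 over genes with an average of at least 1 FPKM. Levels of genes of different length within a column are therefore compared with this limit. The median gene was at 7.05 FPKM in the βNACtes IP and 4.32 FPKM in total ribosomes. A listing at 0 is not taken as absence, because genes used by most cells are also at 0. Rpb11, a subunit of RNA polymerase II, was at 0 in the IP and 56.4 FPKM in total ribosomes, and 59 genes with at least 10 FPKM in the IP were at 0 in total ribosomes. In all 1837 genes were at 0 in total ribosomes and 233 in the IP.

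In the βNACtes IP the authors' mean levels ran from 0.32 FPKM (tj) to 23.0 FPKM (chinmo). The order below chinmo was eya at 8.53 FPKM, dome at 8.44 FPKM, Wnt2 at 6.07 FPKM, Stat92E at 4.72 FPKM, Socs36E at 4.49 FPKM, zfh1 at 4.45 FPKM and hh at 1.72 FPKM. Most of these genes were thus of middling abundance, from percentile 29.2 (hh) to percentile 53.4 (eya) of all genes in the column, with chinmo above at percentile 69.4 and tj below at percentile 12.8. The levels of eya and dome differed by 1.01 times and those of Stat92E and Socs36E by 1.05 times, and without library values no neighbours in this order can be called different beyond their spread. In total ribosomes another gene led: Wnt2 was at 7.11 FPKM, dome at 6.32 FPKM, chinmo at 4.00 FPKM, Stat92E at 3.03 FPKM, eya at 1.58 FPKM, hh at 1.36 FPKM, zfh1 at 0.975 FPKM and Socs36E at 0.135 FPKM, and tj was listed at 0. Wnt2 and dome together held 54.8% of the summed level of the 9 genes in total ribosomes and 23.5% in the IP, whereas chinmo alone held 16.3% and 37.3%. Of these genes chinmo is the longest (12618 exonic bp) and Wnt2 the shortest (2240 bp). The part of length in the order and in these shares was not tested. The value was higher in the IP column for 8 of 9 genes, the exception being Wnt2. Most genes with an average of at least 1 FPKM over both columns were also higher in the IP, with a median log2 ratio of 0.73. The count of 8 therefore does not set these genes apart.

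**Figure D1:**
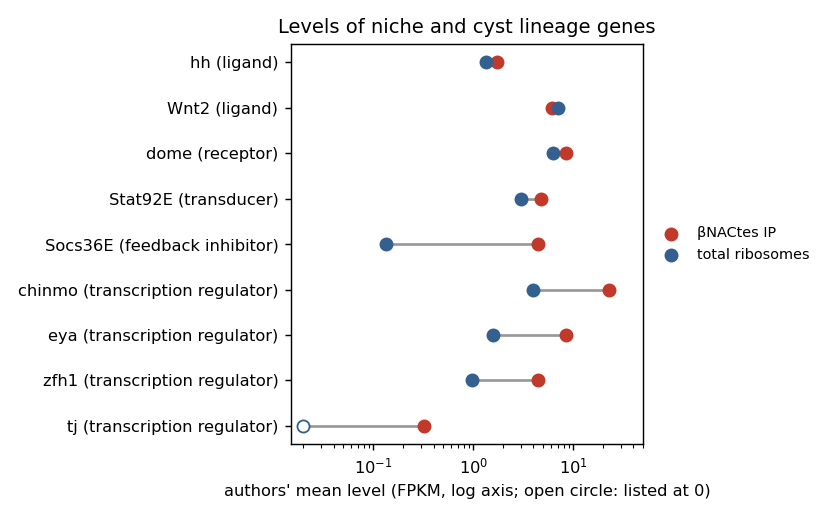
Authors' mean level in FPKM (log axis) of the 9 genes with a row, with the role of each gene beside its symbol. Red points are the βNACtes IP and blue points total ribosomes, each 1 mean with no error known; the open circle marks tj, listed at 0. The points of hh, Wnt2, dome and Stat92E lie close together, whereas Socs36E is at 4.49 against 0.135 FPKM and chinmo at 23.0 against 4.00 FPKM.

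To compare the groups, log2(FPKM + 0.1) in total ribosomes was subtracted from the same quantity in the IP, a scale that understates differences at low level. The filter kept 9793 genes whose average over both columns reached 1 FPKM, and each ratio is given relative to their median of 0.73, since the whole distribution was shifted to the IP. A relative log2 ratio of at least 1 or at most −1, that is 2-fold, is called higher or lower. This is a rule of size and not a test. Of the 8 genes that passed the filter, Socs36E, chinmo, eya and zfh1 were called higher in the IP, none was called lower, and Stat92E, dome, hh and Wnt2 were neither. Over all kept genes 26.4% were called higher and 29.2% lower. The median of the 8 genes was 0.62 against 0 over all kept genes, with 4 genes above and 4 below 0. Socs36E and zfh1 were under 1 FPKM in total ribosomes and passed the filter only through their IP value, which by itself favours a high ratio; of the other 6 genes, 2 were called higher. The libraries were IP and total ribosomes only, with no mock precipitation. RNA of βNACtes-bound ribosomes and RNA carried over in the precipitation therefore cannot be told apart. Ratios are not read as differences in the cells present. Within either bulk column, the number of cells of a type and the RNA per cell cannot be told apart.

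**Figure D2:**
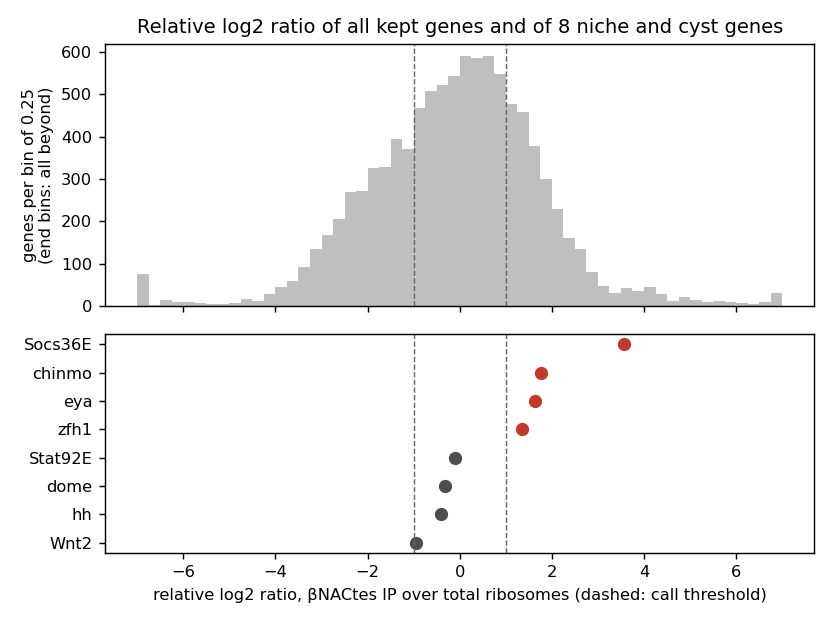
Upper panel: number of kept genes (of 9793) per bin of 0.25 of the relative log2 ratio of the βNACtes IP over total ribosomes, the end bins holding all values beyond them. Lower panel: the 8 niche and cyst genes that passed the filter, red where called higher; dashed lines mark the threshold of 1 in either direction. The 4 red genes lie between 1.35 and 3.56 and the other 4 between −0.95 and −0.11.

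Of the 4 genes called higher, 3 were transcription regulators of the cyst lineage. None of these 3 calls held when the ratio was centred on the median of the gene's class of exonic length, which put chinmo at 0.79, eya at 0.66 and zfh1 at 0.37. Without this step 49.0% of all genes in their length class were called higher. chinmo encodes a BTB zinc finger factor that acts in cyst stem cells and keeps the male identity of the somatic cells. Its mean was 23.0 FPKM in the IP against 4.00 FPKM in total ribosomes, a relative log2 ratio of 1.77 (3.40-fold, percentile 87.2 of all kept genes). The eya gene, whose product is a phosphatase and coactivator needed in differentiating cyst cells, was at 8.53 against 1.58 FPKM, a relative log2 ratio of 1.63 (3.11-fold). Its binding partner sine oculis (so) was at 8.33 and 1.10 FPKM, with a relative log2 ratio of 2.09. No other gene on the list of cyst cell markers was called higher. Six4, on that list, was at 2.72 and 2.76 FPKM, with a relative log2 ratio of −0.75. For zfh1, a zinc finger and homeodomain repressor of the cyst stem cells, the means were 4.45 and 0.975 FPKM, a relative log2 ratio of 1.35 (2.55-fold). The order chinmo, eya, zfh1 was the same in both columns, and chinmo was 2.70 times eya in the IP and 2.54 times in total ribosomes. The levels of tj, the usual marker of early cyst cells, were 0.32 FPKM in the IP and 0 in total ribosomes. It did not pass the filter, and no fold is given against a value of 0. This gene, which defines the cell type by immunostaining, was therefore the weakest of the 9.

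Within the JAK-STAT pathway the receptor and the transcription factor differed little between the columns. For dome, the receptor of Upd, the mean was 8.44 FPKM in the IP and 6.32 FPKM in total ribosomes, which gave a relative log2 ratio of −0.32 (percentile 42.9). Stat92E was at 4.72 and 3.03 FPKM, a relative log2 ratio of −0.11. Socs36E, a suppressor of cytokine signalling that is also a target of Stat92E, was at 4.49 FPKM in the IP against 0.135 FPKM in total ribosomes. The ratio of these 2 means is 33.3, and the relative log2 ratio on the scale with pseudocount was 3.56 (11.8-fold, percentile 97.1). In the IP Socs36E stood at 0.951 times the level of Stat92E, and in total ribosomes at 0.0446 times. If the column of total ribosomes is the plain mean of its 2 libraries, neither library can have exceeded 0.27 FPKM for Socs36E, whereas the IP mean could rest on a single library with as much as 13.5 FPKM.

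Of 12 other genes of the JAK-STAT pathway, 9 passed the filter, and 6 of them were called higher and 1 lower (median 1.29). Over all kept genes these shares were 26.4% and 29.2%. Against genes of similar exonic length 3 were called higher and 1 lower (median 0.31), beside 25.2% and 27.6% of all genes. Of the 6 called higher without regard to length, hop was under 1 FPKM in total ribosomes and passed only through its IP value. The kinase hop was at 4.44 FPKM in the IP and 0.915 FPKM in total ribosomes (relative log2 ratio 1.43), so that dome exceeded its kinase by 1.90 times in the IP and 6.91 times in total ribosomes. The genes called higher also took in Su(var)2-10, the PIAS homolog (2.06), the repressor ken (1.51), Socs44A (1.45), the phosphatase Ptp61F (1.29) and Socs16D (1.13). The gene apt, a nuclear feedback regulator of the pathway in border cells, was called lower at 6.89 against 13.0 FPKM (−1.63). The ligands upd2 and upd3 were at 0.08 and 0.09 FPKM in the IP and at 0 in total ribosomes, and the short receptor et was at 1.98 FPKM and 0.

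The ligands hh and Wnt2 had the lowest relative ratios of the set. Hedgehog (hh) was at 1.72 FPKM in the IP and 1.36 FPKM in total ribosomes, a relative log2 ratio of −0.41. Among 18 other Hedgehog pathway genes with a row, 13 passed the filter, with 7 called higher and 1 lower (median 1.22), beside 26.4% and 29.2% of all kept genes. Against genes of similar exonic length 3 were called higher and 2 lower (median 0.24), beside 25.2% and 27.6% of all genes. Of the 7 called higher without regard to length, ptc, cos, dlp, Gprk2, ttv and rdx were under 1 FPKM in total ribosomes. They passed the filter only through their IP value, which by itself favours a high ratio. The receptor ptc, itself a target of the pathway in cyst stem cells, was at 2.46 against 0.38 FPKM (1.68). The ratio of ptc to hh was thus 1.43 in the IP and 0.280 in total ribosomes. The transducer smo was at 1.18 and 0.945 FPKM (−0.44), close to hh. The transcription factor ci stayed under the filter, with 0.25 FPKM in the IP and 0.01 FPKM in total ribosomes. The largest relative ratios belonged to genes with wider roles, rdx (2.91), an adaptor that brings proteins to a ubiquitin ligase, slmb (2.80), a ubiquitin ligase subunit, and ttv (2.78), which builds heparan sulfate. The lowest was rasp (−2.10), the acyltransferase that modifies the Hedgehog protein, at 2.63 against 6.96 FPKM.

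Wnt2 is a secreted Wnt protein needed for the pigment cells that cover the male gonad. It was the only gene of the set with the higher value in total ribosomes, 7.11 against 6.07 FPKM, and its relative log2 ratio of −0.95 (percentile 30.1) lay just inside the threshold. Of 23 other Wnt pathway genes with a row, 15 passed the filter, with 11 called higher and 2 lower (median 1.51). All kept genes had shares of 26.4% and 29.2%. Against genes of similar exonic length 5 were called higher and 3 lower (median 0.58), beside 25.2% and 27.6% of all genes. Of the 11 called higher without regard to length, fz2, fz4, arr, Apc, por, wls and dnt were under 1 FPKM in total ribosomes. They passed the filter only through their IP value, which by itself favours a high ratio. Wnt6 had a relative log2 ratio of −1.71 (1.49 against 3.04 FPKM) and Wnt5 of 0.87 (1.83 against 0.535 FPKM), whereas wg and Wnt10 were at 0.03 and 0.01 FPKM in the IP. Among the receptors, fz2 (2.79), fz4 (1.55) and the coreceptor arr (1.25) were called higher, and fz3 was neither (−0.17). The genes that acylate and export Wnt proteins, por (3.20) and wls (1.88), were also called higher. The gene arm, which encodes β-catenin, was called lower at 17.1 against 20.9 FPKM (−1.02). For the Hedgehog and Wnt lists the ligands of the set therefore had smaller ratios than the list medians; this difference was not tested.

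In the EGF receptor pathway, by which germ cells signal to the cyst cells around them, 5 of the 12 genes that passed were called higher and none lower (median 0.75), beside 26.4% and 29.2% of all kept genes. Against genes of similar exonic length 3 of the 12 were called higher, beside 25.2% of all genes. Of the 5 called higher without regard to length, Sos and sty were under 1 FPKM in total ribosomes and passed only through their IP value. The germline ligand spi was at 22.3 FPKM in the IP and 4.15 FPKM in total ribosomes (1.67), and S, which escorts the ligand to its protease, at 17.5 and 2.03 FPKM (2.32). The other ligand that passed, Krn, was neither, at 15.9 and 6.15 FPKM (0.63). The lowest ratios were those of Dsor1 (−0.90) and Ras85D (0.03), both neither. The receptor Egfr stayed under the filter with 0.25 and 0.61 FPKM. So did vn, rho, stet and ru, at 0.33, 0.26, 0.25 and 0.52 FPKM in the IP.

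The further lists for these somatic cells did not share 1 direction. Their counts stand beside 26.4% of all kept genes called higher and 29.2% called lower. Against genes of similar exonic length these shares were 25.2% and 27.6%. Of 12 genes on the hub list that passed the filter, 4 were called higher and 2 lower (median 0.29). Against genes of similar exonic length 1 was higher and 5 were lower (median −0.34). Of the 4 called higher without regard to length, CadN, Dl and cher were under 1 FPKM in total ribosomes. They passed the filter only through their IP value, which by itself favours a high ratio. Whether each gene of this list, such as lin, sev and boss, is specific to hub cells was not tested. CadN, an adhesion protein of the hub, was at 3.19 against 0.29 FPKM (2.35), and the hub marker Fas3 at 3.77 against 4.68 FPKM (−1.03). Of 7 cyst cell markers that passed, only so was called higher and only gbb, a BMP ligand that cyst cells send to the germline, was called lower (13.9 against 40.7 FPKM, −2.27), with a median of 0.67. Against genes of similar exonic length 1 cyst cell marker was called higher and 1 lower (median 0.004). The endopeptidase Nep4 was the most abundant of the cyst cell list in the IP at 35.5 FPKM (13.4 FPKM in total ribosomes, 0.67). Of 7 polarity and septate junction genes of the cyst cell barrier that passed, 2 were called higher, cora (1.20) and l(2)gl (1.15), and the gap junction gene Inx2 was called lower (−1.13), with a median of 0.13; against genes of similar length none was higher and 2 were lower (median −0.74). Both cora and l(2)gl were under 1 FPKM in total ribosomes and passed the filter only through their IP value. Of the markers of the labelled cell types, tj and the cyst cell genes ems and nord were listed at 0 in total ribosomes, which is not read as absence.

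**Figure D3:**
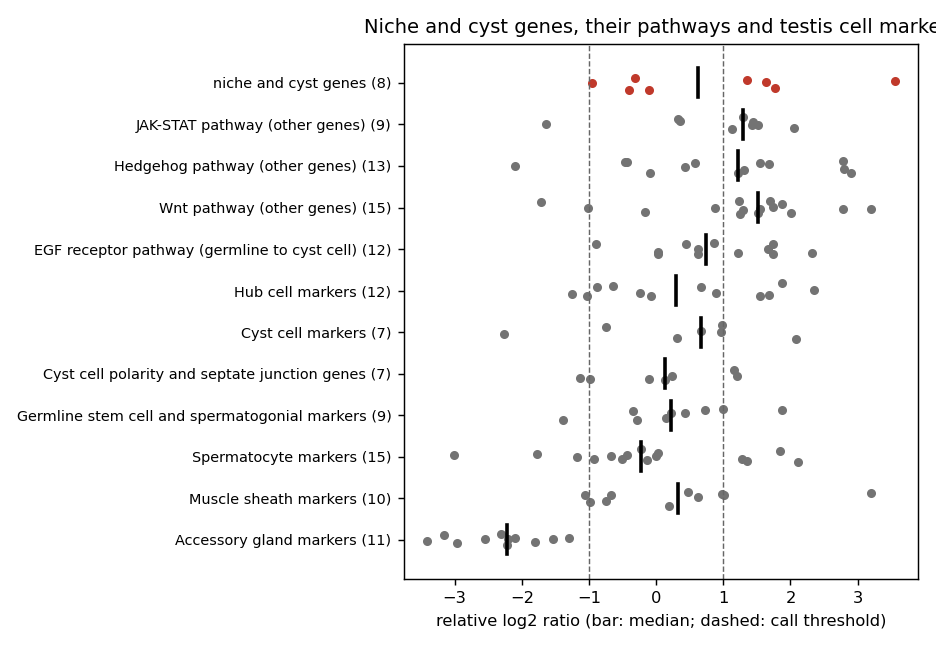
Relative log2 ratio of the 8 niche and cyst genes (red) and of the genes that passed the filter on 11 lists of pathway and cell markers (grey, number in brackets); bars are medians and dashed lines the threshold. The medians of the JAK-STAT, Hedgehog and Wnt lists lie at 1.29, 1.22 and 1.51, and all 11 accessory gland markers lie below −1. Gene length is not taken into account here, and genes that passed the filter only through their IP value are included. Within classes of exonic length the 3 pathway medians were 0.31, 0.24 and 0.58.

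Among markers of other cells of the dissected tissue, those of the accessory gland moved with the comparison. The sum over 11 accessory gland markers was 24352 FPKM in the IP and 92554 FPKM in total ribosomes, all 11 were called lower (median −2.22) and none was at 0. Over all kept genes 29.2% were called lower. These markers are short, with a median of 504 exonic bp. Against genes of similar exonic length 10 were called lower (median −1.67), beside 27.6% of all genes. The sum over 15 spermatocyte markers was 2028 FPKM in the IP and 2169 FPKM in total ribosomes, with 4 called higher, 3 lower and a median of −0.23. The 11 muscle sheath markers summed to 207 and 183 FPKM, and of 10 that passed 2 were called higher and 1 lower (median 0.33). Of the 9 germline stem cell and spermatogonial markers 1 was called higher and 1 lower (median 0.23). The germline marker vas was at 3.32 FPKM in the IP and 2.52 FPKM in total ribosomes, a relative log2 ratio of −0.34, near that of dome and hh. Socs36E, zfh1, the spermatogonial marker AGO3 and the muscle marker sls were called higher but passed the filter only through their IP value. With these included, 4 of 8 niche and cyst genes, 1 of 9 spermatogonial and 2 of 10 muscle markers were called higher, beside 26.4% of all kept genes. Within classes of exonic length, described below, these counts were 1 of 8, 1 of 8 (esg has no known length) and 1 of 10. The part of these other cells in the ratios above was not tested.

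The niche and cyst genes were mostly long. By the BDGP6 annotation of Ensembl release 115, the 9 genes with a row had a median of 3690 exonic bp, against 1663 bp over all kept genes with a known length. Length was not particular to them, since the median was 6506 bp for the hub list and 4906 bp for the JAK-STAT list. The longest is chinmo on chromosome arm 2L (from 1651258 to 1704682, plus strand), with 12618 exonic bp, 6 transcripts and 3′ UTRs of 1688 to 8533 bp. On arm 2L lie also eya (6527447 to 6546976, minus strand, 3690 exonic bp), Socs36E (18138675 to 18152417, minus strand, 3503 bp) and tj (19464267 to 19467758, plus strand, 3492 bp). The genes on arm 3R are Stat92E (20535323 to 20552311, minus strand, 5210 bp), hh (23128169 to 23141906, minus strand, 2370 bp) and zfh1 (30765926 to 30789202, plus strand, 6915 bp). The dome gene lies on the X chromosome (19676061 to 19683518, minus strand, 4875 bp) and Wnt2 on arm 2R (9494166 to 9503188, plus strand, 2240 bp). The exons of zfh1 overlap an antisense RNA, asRNA:CR45189, by 315 bp. Whether the authors' counting used strand is not given in the sources used here, so reads of this stretch cannot be told apart, and no other gene of the set overlaps the exons of another gene.

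The log2 ratio rose with exonic length over all kept genes. The median relative log2 ratio was −0.66 in the shortest of 5 equal classes of genes (76 to 875 bp) and 0.98 in the longest (3224 to 58996 bp), where 49.0% were called higher and 8.09% lower. The longest class held Socs36E, Stat92E, chinmo, dome, eya and zfh1, and the next one hh and Wnt2, in which the median was 0.14 and 27.0% were called higher. When each gene was set against the median of its own length class, the relative log2 ratio was 2.58 for Socs36E, 0.79 for chinmo, 0.66 for eya and 0.37 for zfh1. Of these only Socs36E stayed past the threshold, and it had passed the filter only through its IP value. On the same scale, dome (−1.30), Wnt2 (−1.09) and Stat92E (−1.09) were called lower and hh was at −0.55. The median of the 8 genes then was −0.09, and 25.2% of all genes were called higher and 27.6% lower on this scale. Of the other pathway genes, 3 on the JAK-STAT list, 3 on the Hedgehog list and 5 on the Wnt list were called higher on this scale, with medians of 0.31, 0.24 and 0.58, and the hub, septate junction, spermatogonial and muscle lists had medians below 0.

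**Figure D4:**
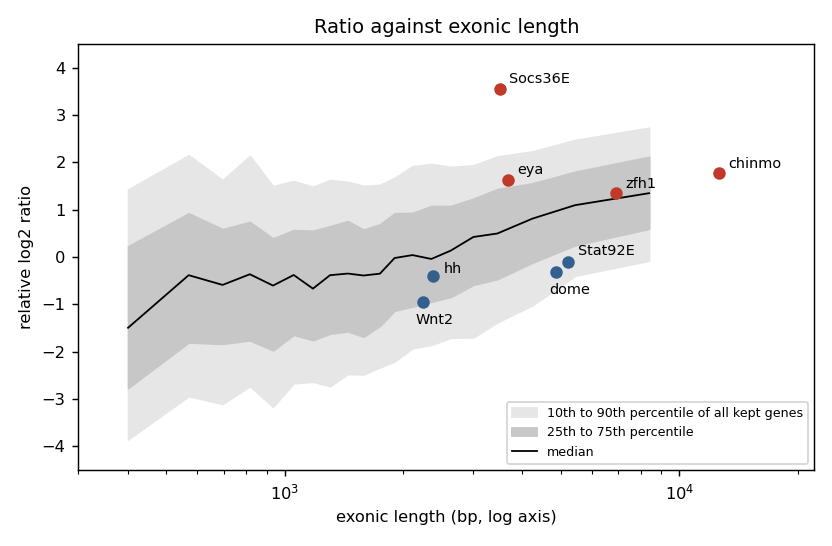
Relative log2 ratio against exonic length (bp, log axis). The line and bands are the median, the 25th to 75th and the 10th to 90th percentile of all kept genes in 20 bins of length; points are the 8 niche and cyst genes, red where called higher. Socs36E lies above the outer band, and dome, Stat92E, hh and Wnt2 lie below the median line.

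The ratios also depended on how the columns were scaled. When both were scaled to TPM (share of the column sum in millionths) and not centred, the median over all kept genes was 1.55, and 7 of the 8 genes were past 1, with Wnt2 at 0.60, beside 62.1% of all kept genes past 1 and 8.75% past −1. In TPM the 9 genes summed to 76.9 in the IP and 17.1 in total ribosomes. Under all scalings the order of the 8 ratios ran from Socs36E through chinmo, eya and zfh1, except that within length classes hh stood above dome, Stat92E and Wnt2. Scalings without centring shift every gene by nearly the same amount, so the signs under them follow from the shift.

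**Figure D5:**
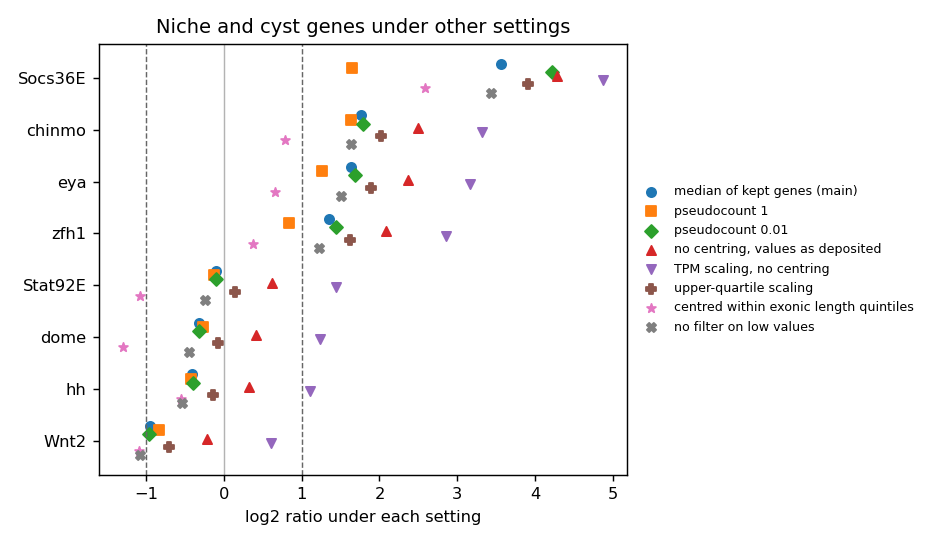
Log2 ratio of the 8 niche and cyst genes under the main setting and 7 others, 1 symbol per setting; dashed lines mark the threshold. Socs36E stays between 1.64 and 4.87, and the settings without centring (TPM, values as deposited) lie to the right for every gene, as they do for the median of all kept genes (1.55 and 0.73).

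With 2 values per gene, likeness to other genes rests on 2 numbers. On the plane of both log2 values the nearest gene to zfh1 was CG14005 (4.43 and 0.975 FPKM), that to eya CG31251 (8.46 and 1.54 FPKM) and that to Stat92E brv1 (4.68 and 3.06 FPKM). The values of tj were shared by CG11203 (0.32 FPKM and 0), and 80 genes lay within 0.1 of tj on this plane, against 10 to 12 for the other 3 genes.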

How the data were processed

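RNA was measured in 3 libraries of βNACtes-precipitated testis ribosomes and 2 of total ribosomes, grouped by the treatment in the labels. The submitters' processing notes name TopHat2 2.0.14, Bowtie2, Cufflinks 2.2.1 and the genome build dm3. The annotation, and how reads shared by several genes were treated, are not given in the sources used here. The authors deposited 1 table of fractional values without a unit, read as FPKM averaged by group, because value times exonic length summed to 1098119 and 1098789 in the 2 columns. Its column of log2 ratios is the authors' own comparison and was not used. Single libraries were not analysed here, so depth is unknown and no p-value, replicate error or paired fit could be had.

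Ratios used a pseudocount of 0.1 FPKM, a minimum average of 1 FPKM and a threshold of 1 on the log2 scale. Exonic lengths and coordinates come from Ensembl release 115 (BDGP6), matched by identifier for 98.9% of rows. The genes and lists were chosen with earlier results of these data known. All 10 genes were to be named, and from each of 11 lists the ligands, receptors and transducers and up to 3 genes with the highest and lowest ratio; so, gbb, Nep4, vas, Inx2, Rpb11 and the other markers named were chosen with their values seen. Planned descriptions of protein N-termini and promoter motifs were not made, since no sequences were used here. The scripts were tested on simulated data with known changes. Figures were drawn with matplotlib 3.10.9, and values computed in Python 3.11.15 with pandas 2.3.3, scipy 1.17.1 and numpy 2.4.6. Other pseudocounts, filters, scalings and thresholds were tried as alternatives.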

Additional observations from a re-analysis of the deposited data

How the results depend on the processing

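The only call that held under every setting in which its gene was kept was Socs36E, at 1.64 to 4.87. It was not kept with a mean of at least 5 FPKM. In the main setting it passed the filter only through its IP value, which by itself favours a high ratio. Every setting reuses the same 2 means, so a call that holds is no further support for a difference. With a pseudocount of 1, zfh1 was at 0.83. With TPM scaling hh was at 1.10, dome at 1.24 and Stat92E at 1.44, and 7 genes were past 1. Within classes of exonic length zfh1 was at 0.37, chinmo at 0.79, eya at 0.66, Wnt2 at −1.09, dome at −1.30 and Stat92E at −1.09, which left 1 gene called higher and 3 lower. Without a filter on low values Wnt2 was at −1.08, the 1 gene called lower. With a mean of at least 5 FPKM 2 genes were called higher, of the 4 genes then kept. At a threshold of 0.58 Wnt2 was the 1 gene called lower, and at 2 Socs36E the 1 called higher. Of all calls over the kept genes, 47.5% were higher under median centring, 55.8% under upper-quartile scaling, 70.5% with no centring and 87.6% under TPM scaling. For the 11 lists, 103 counts stayed within 1.5 times and 73 did not. Of 88 medians of these lists under other settings, 10 changed sign: the spermatocyte list under 3 other scalings (0.02 to 1.33), the hub (−0.34), septate junction (−0.74), spermatogonial (−0.13) and muscle (−0.18) lists within length classes, and the hub (−0.53), cyst cell (−0.69) and spermatogonial (−0.08) lists with a mean of at least 5 FPKM. No paired analysis was possible because the columns hold 1 mean per group, and for the same reason no library could be left out. Rescaling a level to TPM multiplies a column by a constant and leaves its order as it was. Depth is unknown, so the precision of low values such as 0.135 FPKM cannot be given.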
